A study of Mus musculus with 2 samples.

Results

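The S, G2 and M genes of the cell cycle described here are 42 genes chosen by symbol, 17 for DNA synthesis (S) and 25 for G2 and mitosis (G2/M), of the 32285 genes counted in single-cell RNA sequencing of mouse bone marrow. All 42 symbols were found among the counted genes. The rule takes genes by symbol and sets no threshold on a measured value. Lineage- cKit+ cells, the marrow fraction that holds blood stem cells and their dividing early progeny, were isolated from the thigh and shin bones (femora, tibiae) of mice on the C57BL/6 background. The control library is labelled Trsp f/f, with loxP-flanked copies of Trsp, the gene of the selenocysteine tRNA. The knockout library is labelled Trsp f/f:Mx1-Cre and carries in addition a Cre recombinase under the interferon-responsive Mx1 promoter, which acts in many cell types. Mice of both genotypes received 3 doses of 500 µg pI-pC, a double-stranded RNA that switches on the Mx1 promoter, at a time the record words as 7 weeks after birth, and marrow was taken 9 weeks after the last dose. The cells were frozen and thawed before loading. Each genotype is 1 library, and the number of mice behind it was not stated in the sources used here.

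A dividing cell copies its DNA in S phase and separates the copies in mitosis. Many S genes are switched on by E2F transcription factors before DNA replication. The mRNAs of many G2 and M genes accumulate later, under the MuvB complex with B-MYB and FOXM1, and are cleared around mitotic exit. In marrow, stem cells rest for most of their lives, while the progenitors below them divide often, so the levels of these mRNAs differ with the maturity and lineage of a cell.

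Each value below compares 1 control library with 1 knockout library, so no difference has a replicate check and no test was made. Intervals are at 95% and cover counting error only. The control library held 14372 barcodes and 184683653 unique molecular identifiers (UMIs, which count captured mRNA molecules), and the knockout library 11556 barcodes and 152092210 UMIs. After filtering, 8046 control cells (median 20352 UMIs, median mitochondrial share 3.78%) and 6654 knockout cells (median 20763.5 UMIs, 4.62%) were kept. In each of the 8 cell classes compared below the knockout cells had the higher median, for example 27182.5 against 22353 UMIs in neutrophil and 30533 against 24722.5 UMIs in monocyte progenitor-like cells. The part of depth and mitochondrial share in the results was not tested beyond the thinning and the stricter filter given below. Of the barcode sequences, 10 occurred among the kept cells of both libraries. A cluster with few UMIs held 162 control and 1291 knockout cells. Cells under 5000 UMIs numbered 277 in the control and 1127 in the knockout library. As a check of the labels, the selenoprotein mRNA Gpx1 stood at 1508 UMIs per 1000000 UMIs (counts per 1000000, CPM) in control and 253 CPM in knockout cells, since Trsp itself was not analysed here.

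The 42 genes lie on 14 mouse chromosomes. Some are neighbours: the S gene Slbp and the mitotic gene Tacc3 lie 5553 bases apart on chromosome 5, and Cdc6 and Top2a lie 69002 bases apart on chromosome 11. In the GENCODE M21 annotation of mm10, 8 of the 42 overlap a counted gene on the other strand (among them Ube2c with Tnnc2 and Nusap1 with Oip5), and 2 overlap one on the same strand. The sources used here do not say whether counting used strand, so a share of their UMIs may belong to the partner.

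Promoter sequences of the S and G2/M genes were compared outside the RNA data. RefSeq promoters (250 bases before to 50 bases after a gene start, build GRCm38.p6) were given for 36 of the 42 genes. They were searched on both strands for the word TTTGAA, the core of the cell cycle homology region (CHR) bound by MuvB complexes, for CCAAT, the box bound by NF-Y, and for the E2F words TTTCCCGC, TTTCGCGC, TTTGCCGC and TTTGGCGC. Matches were allowed to share letters with another word. The CHR word stood in 15 of 22 G2/M promoters (68.2%) and in 1 of 16 S promoters (6.25%), against 17.9% of all 32851 promoters. CCAAT stood in 77.3% of the G2/M, 50% of the S and 37.4% of all promoters. CHR and CCAAT stood together in 13 G2/M promoters, in 0 S promoters, and in 6.95% of all. An E2F word stood in 5 of 16 S promoters (31.2%), in 1 G2/M promoter (Cdk1), and in 2.26% of all. These are matches of letters, not measured binding sites.

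The following windows run from 120 bases before to 50 bases after the start and are printed 5′ to 3′ along the gene's strand, with CHR, CCAAT and E2F words in capitals on either strand (ATTGG and TTCAAA are the reverse complements of CCAAT and TTTGAA). Ccnb2, Cdk1 and Plk1 show the CCAAT and CHR arrangement of the G2/M list. Kif11 and Ube2c are shown because they had the highest and lowest knockout over control ratios of that list. Dtl, Clspn and Hells show the E2F words of the S list.
Ccnb2 (chr9:70421505-70421674, minus strand): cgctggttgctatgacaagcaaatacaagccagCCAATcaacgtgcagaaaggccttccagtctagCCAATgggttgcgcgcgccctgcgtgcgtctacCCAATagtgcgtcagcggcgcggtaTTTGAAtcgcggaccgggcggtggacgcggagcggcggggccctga
Cdk1 (chr10:69352863-69353032, minus strand): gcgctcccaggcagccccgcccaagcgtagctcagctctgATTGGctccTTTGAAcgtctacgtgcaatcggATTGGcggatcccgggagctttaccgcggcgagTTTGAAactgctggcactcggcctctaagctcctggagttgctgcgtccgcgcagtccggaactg
Plk1 (chr7:122159315-122159484, plus strand): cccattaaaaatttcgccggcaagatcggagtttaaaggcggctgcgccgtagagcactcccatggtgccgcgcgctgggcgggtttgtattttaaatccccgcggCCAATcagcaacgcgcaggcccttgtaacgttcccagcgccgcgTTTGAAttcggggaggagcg
Kif11 (chr19:37376262-37376431, plus strand): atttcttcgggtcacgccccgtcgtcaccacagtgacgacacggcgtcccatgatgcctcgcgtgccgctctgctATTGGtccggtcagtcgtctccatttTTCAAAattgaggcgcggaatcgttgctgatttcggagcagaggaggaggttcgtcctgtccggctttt
Ube2c (chr2:164769809-164769978, plus strand): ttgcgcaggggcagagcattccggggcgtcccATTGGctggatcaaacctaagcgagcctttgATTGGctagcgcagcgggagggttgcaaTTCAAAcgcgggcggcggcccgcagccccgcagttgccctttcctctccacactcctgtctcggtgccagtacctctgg
Dtl (chr1:191575495-191575664, minus strand): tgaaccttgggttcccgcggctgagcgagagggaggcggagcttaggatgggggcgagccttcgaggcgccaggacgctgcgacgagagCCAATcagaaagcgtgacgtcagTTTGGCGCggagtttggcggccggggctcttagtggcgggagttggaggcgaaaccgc
Clspn (chr4:126556860-126557029, plus strand): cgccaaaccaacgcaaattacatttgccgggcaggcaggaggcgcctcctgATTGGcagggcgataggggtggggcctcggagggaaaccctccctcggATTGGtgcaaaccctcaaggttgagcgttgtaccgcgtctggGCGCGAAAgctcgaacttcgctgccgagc
Hells (chr19:38930870-38931039, plus strand): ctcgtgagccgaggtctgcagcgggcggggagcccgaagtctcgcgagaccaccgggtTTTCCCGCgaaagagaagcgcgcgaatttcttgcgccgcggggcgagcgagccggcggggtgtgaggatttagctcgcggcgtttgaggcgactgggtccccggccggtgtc

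The cells were sorted into classes by marker genes, and the S-high and G2/M-high cells of each class were counted. A cell took a class when its mean standardised level of that class's markers led the other classes by a set margin. This gave 8 classes with at least 100 cells in each library, named "-like" because they rest on mRNA. HSC-like cells (627 control and 519 knockout) carried the stem cell genes Hlf, at 457 and 552 CPM, and Mecom, at 102 and 106 CPM. Lymphoid-primed progenitor-like cells (461 and 528) carried Dntt and Flt3. Neutrophil progenitor-like cells (1905 and 1142) carried Elane and Mpo, and monocyte progenitor-like cells (1470 and 1001) Irf8 and Ly6c2. Dendritic cell-like cells (182 and 163) were led by the class II genes Cd74 and H2-Aa, while the plasmacytoid gene Siglech stood at 30.8 and 41.3 CPM. Basophil or mast-like cells (437 and 249) carried Mcpt8, erythroid-like cells (155 and 193) Car1 and Klf1, and megakaryocyte marker-high cells (141 and 122) Pf4 and Itga2b. A further 2357 control and 2542 knockout cells stayed ungated.

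In some classes the markers themselves differed between the libraries, so the same gate may hold cells of different maturity. In HSC-like cells Ly6a stood at 54.5 CPM in control and 39.7 CPM in knockout cells (log2 ratio -0.46) and Procr at 40.8 and 33.6 CPM (-0.28). In megakaryocyte marker-high cells Pf4 stood at 2790 CPM in control and 869 CPM in knockout cells. In erythroid-like cells Hba-a1 stood at 845 and 330 CPM and Hbb-bt at 582 and 1437 CPM. These globin genes have near-identical copies, so their counts are uncertain. In lymphoid-primed progenitor-like cells Ebf1 stood at 25.1 and 72.8 CPM. The part of these differences in the results below was not tested.

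Cells high for either list made up 37.0% of HSC-like and 87.1% of erythroid-like control cells, and these classes were also lowest and highest in the knockout library, at 36.8% and 93.6%. To compare cells of unequal depth, each cell was thinned at random to 5000 UMIs. A cell was called G2/M-high with at least 5 UMIs of the 25 G2/M genes (0.1% of its UMIs) and S-high with at least 10 UMIs of the 17 S genes (0.2%). HSC-like cells had the lowest share of G2/M-high cells, 31.3% in the control (193 of 616 cells, 27.7 to 35.2) and 29.7% in the knockout library (153 of 516 cells, 25.7 to 33.8). Erythroid-like cells had the highest, 82.3% in the control (121 of 147 cells, 75.2 to 88.1) and 88.9% in the knockout library (152 of 171 cells, 83.2 to 93.2). Between them lay, in the control library, lymphoid-primed progenitor-like (39.8%), dendritic cell-like (44.8%), megakaryocyte marker-high (54.3%), basophil or mast-like (60.3%), neutrophil progenitor-like (70.0%) and monocyte progenitor-like cells (74.2%). Neighbours in this order differed by more than counting error in the control library, except that dendritic cell-like cells could not be told from lymphoid-primed progenitor-like or megakaryocyte marker-high cells, nor megakaryocyte marker-high from basophil or mast-like cells.

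For comparison, B or plasma-like cells, a class outside the progenitors, were G2/M-high in 4 of 64 control cells (6.25%, 1.73 to 15.2; median 24799 UMIs) and 10 of 44 knockout cells (22.7%, 11.5 to 37.8; median 22395 UMIs before cells under 5000 UMIs were left out). The intervals of all 8 compared classes lay above that of this class in the control library, and in the knockout library the intervals of HSC-like and lymphoid-primed progenitor-like cells overlapped it. S-high cells were 0 of the 64 control B or plasma-like cells, which allows a share of up to 5.60%, and 3 of the 44 knockout cells (6.82%). The summed G2/M genes made up 0.0305% of UMIs in control and 0.0822% in knockout B or plasma-like cells, but this class was not free of cells rich in G2/M mRNA. Its 10 G2/M-high knockout cells carried 0.362% G2/M UMIs, beside 0.334% in G2/M-high monocyte progenitor-like knockout cells, and its other cells carried 0.0137% in control and 0.0223% in knockout. Barcodes under 500 genes, which were left out, carried 0.0977% G2/M UMIs in the control and 0.0844% in the knockout library.

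**Figure D1:**
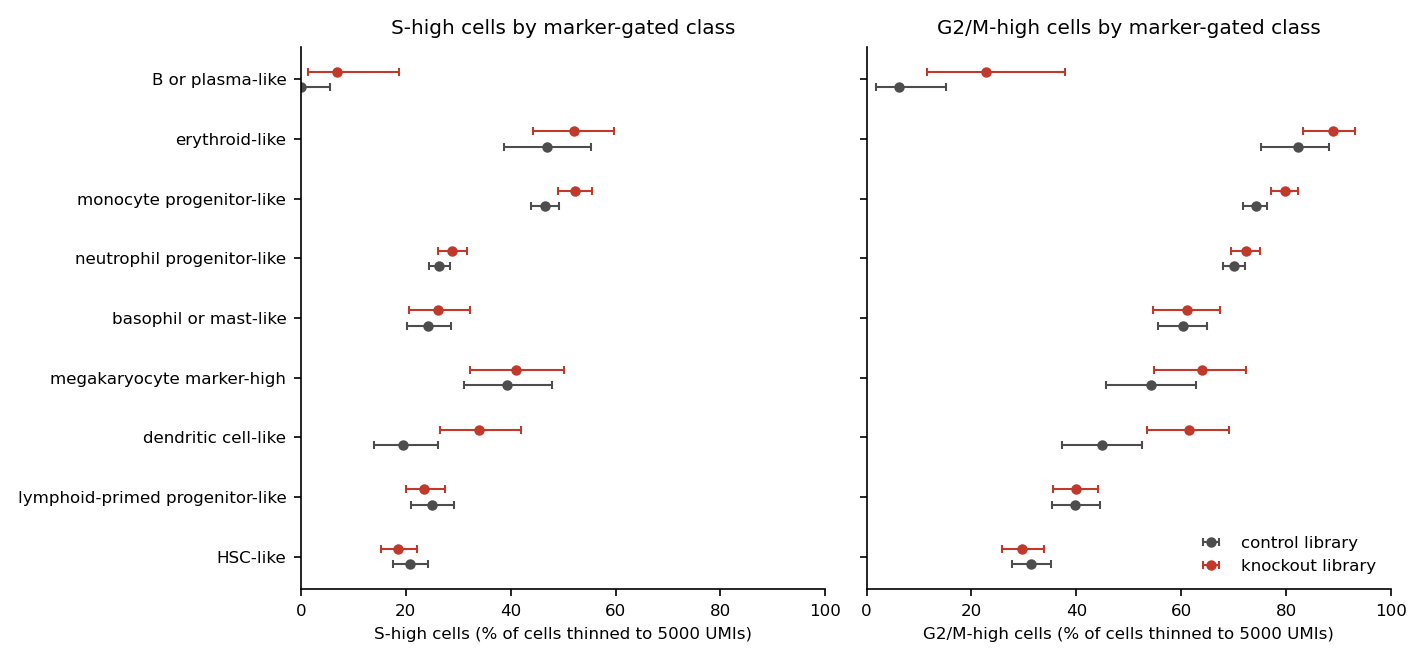
Share of S-high cells (left) and G2/M-high cells (right) in each marker-gated class, in percent of cells thinned to 5000 UMIs, for the control (grey) and the knockout library (red). Points are shares and bars exact 95% binomial intervals for counting error. G2/M-high shares rise from 31.3% and 29.7% in HSC-like cells to 82.3% and 88.9% in erythroid-like cells, and B or plasma-like cells are shown for comparison.

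The order by S genes was not the order by G2/M genes. Erythroid-like and monocyte progenitor-like cells had the most S-high cells, 46.9% and 46.5% in the control and 52.0% and 52.3% in the knockout library. Neutrophil progenitor-like cells were G2/M-high in 70.0% of control cells but S-high in only 26.4%. Megakaryocyte marker-high cells were S-high in 39.3% of control cells, with a G2/M-high share of 54.3%. HSC-like cells were S-high in 20.8% of control and 18.6% of knockout cells. The thresholds cut a continuous range: 9.90% of control HSC-like cells and 17.6% of control neutrophil progenitor-like cells had 4 or 5 G2/M UMIs, the counts just outside and just inside the threshold. With 10 G2/M UMIs as the threshold, the neutrophil share was 36.8% and the erythroid share 70.1% in the control library. Without thinning, with the same share of UMIs as threshold, 28.1% of control and 27.6% of knockout HSC-like cells were G2/M-high.

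How strongly the G2/M genes were present in cells that passed the threshold also differed by class. In G2/M-high cells of the control library these genes took 0.632% of UMIs in dendritic cell-like, 0.509% in megakaryocyte marker-high, 0.468% in erythroid-like, 0.436% in HSC-like and 0.248% in neutrophil progenitor-like cells. In the cells under the threshold they took between 0.0327% (dendritic cell-like) and 0.0771% (neutrophil progenitor-like). The levels above and below the threshold thus lay closer together in neutrophil progenitor-like than in dendritic cell-like cells. Whether either class forms separate groups of cells was not tested. Cells with cycle genes were also larger libraries: the median was 14706 UMIs in control cells that were neither S-high nor G2/M-high and 23253.5 UMIs in those that were G2/M-high only, against 15710 and 26539 UMIs in the knockout library. Predicted doublets, which were removed, had a median G2/M share of 0.214% in the control and 0.232% in the knockout library, against 0.126% and 0.169% in kept cells.

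Each gene was next asked how well it followed its list, by splitting the cells on the other genes only. All 17 S genes were higher in S-high-only cells than in cells low for both lists, and all 25 G2/M genes were higher in G2/M-high-only cells than in low cells, in both libraries. The G2/M genes spread over a wide range. Nusap1, which bundles spindle microtubules, stood at 3.31 CPM in low and 135 CPM in G2/M-high-only control cells, and at 3.27 and 157 CPM in knockout cells. Hmmr, a spindle assembly factor, stood at 2.87 and 115 CPM in the control library. Ube2c, the ubiquitin-conjugating enzyme of the anaphase-promoting complex, stood at 12.6 and 356 CPM, and Plk1, the mitotic polo kinase, at 2.43 and 61.3 CPM. At the other end, Cks2, a small CDK-binding subunit, stood at 229 CPM in low and 484 CPM in G2/M-high-only control cells. Cks2 thus differed 2.11-fold between these cells, and Nusap1 40.8-fold.

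The G2/M genes also differed in their level in S-high-only cells. Cells of all classes were pooled here, time was not measured, and the part of class mix was not tested. Top2a, the topoisomerase that untangles replicated DNA, was 3.24-fold higher in S-high-only than in low control cells, and Ccna2, the cyclin of S and G2, was 3.12-fold higher. Kif11, the motor that separates the spindle poles, was 2.95-fold higher, and the kinases Aurkb and Bub1 were 2.80-fold and 2.79-fold higher. By contrast Ccnb2, a B-type cyclin, and Cenpa, the centromeric histone, were lower in S-high-only than in low control cells, at 0.598 and 0.552 of the low level, as were Cenpf (0.780) and Cks2 (0.954). In the knockout library only Cenpa (0.895) and Cks2 (0.995) of the 25 were below the low cells.

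Of the 17 S genes, 8 were lower in G2/M-high-only than in low control cells, and 4 stayed at least 1.5-fold above the low cells there. In the knockout library 4 were lower (Ung, Uhrf1, Hells and Chaf1b) and 7 at least 1.5-fold above. Ung, the uracil-DNA glycosylase, was lowest in G2/M-high-only cells relative to low cells, at 50.1 CPM in low, 103 CPM in S-high-only and 19.5 CPM in G2/M-high-only control cells, and at 4.71 CPM in cells with at least 20 G2/M UMIs. Cdc6, the origin licensing factor, stood at 26.8, 64.3 and 25.1 CPM in the same 3 sets of control cells, and at 24.5, 64.1 and 26.7 CPM in knockout cells. Uhrf1, which keeps DNA methylation at replication forks, stood at 70.4, 169 and 61.3 CPM, and Chaf1b, a histone chaperone subunit, at 37.7, 59.6 and 24.8 CPM. In contrast Tyms, thymidylate synthase, and Rrm1 and Rrm2, the subunits of ribonucleotide reductase, were 2.24-fold, 1.91-fold and 2.26-fold above the low cells in G2/M-high-only control cells, as was Clspn, the replication checkpoint adaptor, by 1.91-fold. Pcna, the replication clamp, was 1.75-fold higher in S-high-only than in low control cells, but its level in G2/M-high-only cells was close to that of low cells (230 against 227 CPM).

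**Figure D2:**
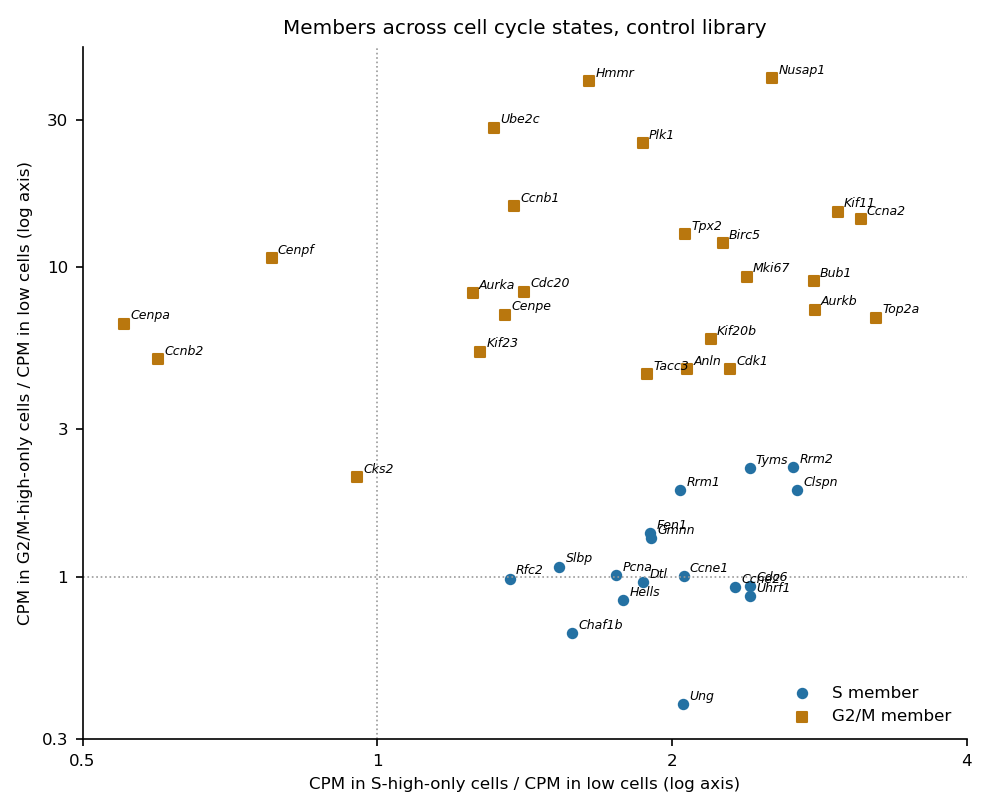
For each of the 42 genes, its CPM in S-high-only cells (x axis, log) and in G2/M-high-only cells (y axis, log), each divided by its CPM in cells low for both lists, in the control library, with cells split on the other genes. All S genes (circles) lie right of 1 and all G2/M genes (squares) above 1; Ung lies lowest at 0.389 and Nusap1 and Hmmr highest at 40.8 and 39.9.

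Against this order of classes, the knockout and control libraries differed little. The G2/M-high share was higher in the knockout library in 7 of 8 classes and the S-high share in 6 of 8, but the interval of the difference excluded 0 in 2 classes for each. Monocyte progenitor-like cells were G2/M-high in 74.2% of 1461 control and 79.8% of 950 knockout cells, a difference of 5.59 percentage points (2.15 to 8.94), and S-high in 46.5% and 52.3%, a difference of 5.77 points (1.69 to 9.83). These shares left out cells of this class under 5000 UMIs, 9 of 1470 control (0.612%) and 51 of 1001 knockout cells (5.09%). The part of this unequal loss was not tested, and the G2/M-high difference was smaller with a higher threshold (last section). Dendritic cell-like cells were G2/M-high in 44.8% of 174 control and 61.5% of 156 knockout cells, 16.7 points apart (5.93 to 26.9), and S-high in 19.5% and 34.0%, 14.4 points apart (4.89 to 23.8). The dendritic S-high difference was -1.93 points when cells were thinned to 10000 UMIs and 3.74 points with predicted doublets kept, so its direction was not stable; the G2/M-high difference was 4.79 points at 10000 UMIs.

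In HSC-like cells the knockout library was 1.68 points lower for G2/M-high cells (-7.02 to 3.72) and 2.17 points lower for S-high cells (-6.78 to 2.51), and the intervals spanned 0. Lymphoid-primed progenitor-like cells were G2/M-high in 39.8% of both libraries, a difference of 0.0218 points (-6.11 to 6.14). Both G2/M-high differences depended on the threshold (last section). With a higher threshold the lymphoid-primed share was higher in the knockout library. With a lower threshold the HSC-like share was further below that of the control. The bounds of these intervals show which differences fit the counted cells at the main threshold, and they cover counting error only. Over all kept cells, 60.5% of control and 62.8% of knockout cells were G2/M-high, 2.31 points apart (0.631 to 3.98), and 32.6% and 35.6% were S-high, 3.08 points apart (1.44 to 4.72). The mix of classes differed too: neutrophil progenitor-like cells were 23.7% of control and 17.2% of knockout cells, and lymphoid-primed progenitor-like cells 5.73% and 7.94%. This mix is of all kept cells, including those under 5000 UMIs, of which 177 control and 922 knockout cells were ungated. The part of these cells in the mix was not tested.

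The share of all UMIs taken by each list gave a similar picture of small and mixed differences. Over all kept cells the S list took 0.166% of control and 0.175% of knockout UMIs, a log2 ratio of 0.08, and the G2/M list 0.251% and 0.266%, also 0.08. The median gene of all 6094 measured genes had a log2 ratio of 0.08 as well, so neither list stood apart from the mass of genes. With the 8 classes weighted as in the control library, the log2 ratios were 0.06 for S and 0.04 for G2/M. By class, the S list ranged from -0.08 in HSC-like cells (-0.12 to -0.04) to 0.29 in dendritic cell-like cells (0.22 to 0.36). The G2/M list ranged from -0.20 in erythroid-like cells (-0.23 to -0.18) to 0.23 in lymphoid-primed progenitor-like cells (0.20 to 0.26). In these sums, fewer cells that carry an mRNA and less of it per cell cannot be told apart. The values depended on how cells were chosen: with unsupervised clusters in place of gates the lymphoid-primed G2/M ratio was 0.54 and the dendritic S ratio 0.07, and with a stricter cell filter the HSC-like S ratio was 0.016.

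In several classes the share of G2/M-high cells and the level of G2/M mRNA within them differed in opposite directions. These measures are not independent, since more cells just above the threshold raise the share and can lower the mean level. The interval of the share difference excluded 0 only in monocyte progenitor-like and dendritic cell-like cells. In the other classes the sign of the share difference was within counting error. Monocyte progenitor-like cells had more G2/M-high cells in the knockout library, but their G2/M list took 0.298% of control and 0.291% of knockout UMIs. The 25th percentile of cells was 0.0888% in control and 0.110% in knockout, while the 90th was 0.631% and 0.561%. The control distribution was thus wider at both ends. In erythroid-like cells the G2/M-high share was 82.3% and 88.9%, while the mean level in those G2/M-high cells was 0.468% and 0.398% of UMIs. In megakaryocyte marker-high cells the corresponding values were 54.3% and 63.9% of cells, at 0.509% and 0.418%. Dendritic cell-like cells (44.8% and 61.5% of cells, at 0.632% and 0.566%) and basophil or mast-like cells (60.3% and 61.1%, at 0.412% and 0.393%) had the same pattern of signs. HSC-like cells had the opposite one, with 31.3% and 29.7% of cells at 0.436% and 0.487%. Lymphoid-primed progenitor-like cells had near-equal G2/M-high shares at this threshold and a level in those cells of 0.451% in control and 0.539% in knockout.

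None of the single genes was 1.5-fold apart between the libraries over all kept cells. Of the 42 genes, 41 were measured (at least 20 CPM in 1 library and 50 UMIs over both) and 0 were at least 1.5-fold higher or lower, against a background of 1.02% of 6094 measured genes higher and 0.607% lower. Ccne1, a cyclin of S phase entry, stood under the floor at 15 CPM in control and 16.0 CPM in knockout cells. The median log2 ratio was 0.05 for the 16 measured S genes and 0.11 for the 25 G2/M genes, beside 0.08 for all measured genes. When median-of-ratios size factors replaced total UMIs, the log2 ratios of Rrm2, Cdc6, Hells, Cdk1, Ccnb2 and Cdc20 turned below 0, to between -0.05 and -0.0012. That scaling lowered the log2 ratio of all 42 genes by the same 0.08, the median of all measured genes, so the ratios below are read beside that median.

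Among the S genes, enzymes of nucleotide supply differed from each other. Rrm1, the large subunit of ribonucleotide reductase, stood at 144 CPM in control and 176 CPM in knockout cells, a log2 ratio of 0.28 (0.26 to 0.31) and the highest of the S list. Its partner Rrm2 stood at 82.2 and 84.6 CPM and Tyms at 103 CPM in both libraries. Thus the 2 subunits of 1 enzyme had unlike ratios. The fork and clamp genes stood at 290 and 325 CPM (Pcna), 169 and 163 CPM (Rfc2, a clamp loader subunit) and 76.9 and 72.3 CPM (Fen1, the flap endonuclease). Ung, which removes uracil from DNA, stood at 44.1 and 37.9 CPM, a log2 ratio of -0.22 (-0.27 to -0.17).

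The licensing and checkpoint genes lay on both sides of 0. Cdc6 stood at 39.0 and 40.6 CPM, and Gmnn, which blocks relicensing of origins, at 119.5 and 111 CPM. Dtl, which marks licensing factors for destruction, stood at 94.6 and 112 CPM, a log2 ratio of 0.24. Clspn stood at 63.4 and 69.1 CPM, and Ccne2, a cyclin of S phase entry, at 28.0 and 24.1 CPM, a log2 ratio of -0.22. The chromatin genes Uhrf1 (102 and 117 CPM), Hells, a chromatin remodeller (131 and 135 CPM), and Chaf1b (39.3 and 42.9 CPM) had log2 ratios above 0. That of Hells (0.04) lay below the median of all measured genes (0.08). Slbp, which binds histone mRNA, stood at 116 and 124 CPM.

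Among the G2/M genes, the kinases and cyclins lay on both sides of 0.08, the median log2 ratio of all measured genes. Cdk1, the mitotic kinase, stood at 97.0 CPM in control and 103 CPM in knockout cells, a log2 ratio of 0.08. Ccnb1 and Ccnb2, its B-type cyclins, stood at 44.9 and 48.0 CPM and at 70.1 and 72.7 CPM. Ccna2 stood at 58.8 and 68.2 CPM. Plk1 stood at 33.6 and 34.6 CPM, Aurka, the spindle pole kinase, at 30.1 and 32.9 CPM, Aurkb, the kinase of the chromosomal passenger complex, at 53.4 and 60.3 CPM, and the checkpoint kinase Bub1 at 29.6 and 32.4 CPM. All of these log2 ratios were above 0, the highest being 0.21 for Ccna2, and the interval of Plk1 spanned 0. Those of Ccnb2 (0.05) and Plk1 (0.04) lay below the median of all measured genes.

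The spindle, motor and cytokinesis genes held the highest ratios. Kif11 stood at 72.2 and 89.0 CPM, a log2 ratio of 0.30 (0.27 to 0.34). Nusap1 stood at 73.8 and 88.3 CPM (0.26), Anln, the cleavage furrow protein anillin, at 26.9 and 32.2 CPM (0.26), and Kif23, a motor of the midzone, at 58.5 and 68.8 CPM (0.24). Cenpe, a kinetochore motor, stood at 69.5 and 81.1 CPM (0.22), and Tacc3, which stabilises spindle microtubules, at 51.0 and 58.4 CPM (0.20). Their relatives lay nearer 0: Kif20b, a cytokinesis motor, was at 62.2 and 67.3 CPM, Tpx2, which activates Aurka on the spindle, at 87.6 and 93.4 CPM, Hmmr at 59.8 and 64.4 CPM, Cenpf, a kinetochore protein, at 108 and 117 CPM, and Cenpa at 105 and 107 CPM. Mki67, the proliferation marker that coats mitotic chromosomes, stood at 255 and 296 CPM (0.21), and Top2a at 332 and 363 CPM (0.13).

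Of the G2/M genes, 3 had a log2 ratio below 0. Others, such as Cenpa (0.02) and Plk1 (0.04), lay above 0 but below the median of all measured genes (0.08). Ube2c stood at 172 CPM in control and 152 CPM in knockout cells, a log2 ratio of -0.18 (-0.21 to -0.16). Birc5, which encodes survivin of the chromosomal passenger complex, stood at 162 and 147 CPM (-0.14), and Cks2 at 334 and 317 CPM (-0.08). Cdc20, which like Ube2c serves the anaphase-promoting complex, stood at 62.2 and 65.2 CPM (0.07). Birc5 and its partner Aurkb (0.18) thus lay on opposite sides of 0. The interval of Ube2c lay below 0 in 7 of the 8 classes, where it ranged down to -0.46 in erythroid-like cells, and above 0 in lymphoid-primed progenitor-like cells (0.32). The interval of Birc5 lay below 0 in 5 classes and above 0 in none.

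**Figure D3:**
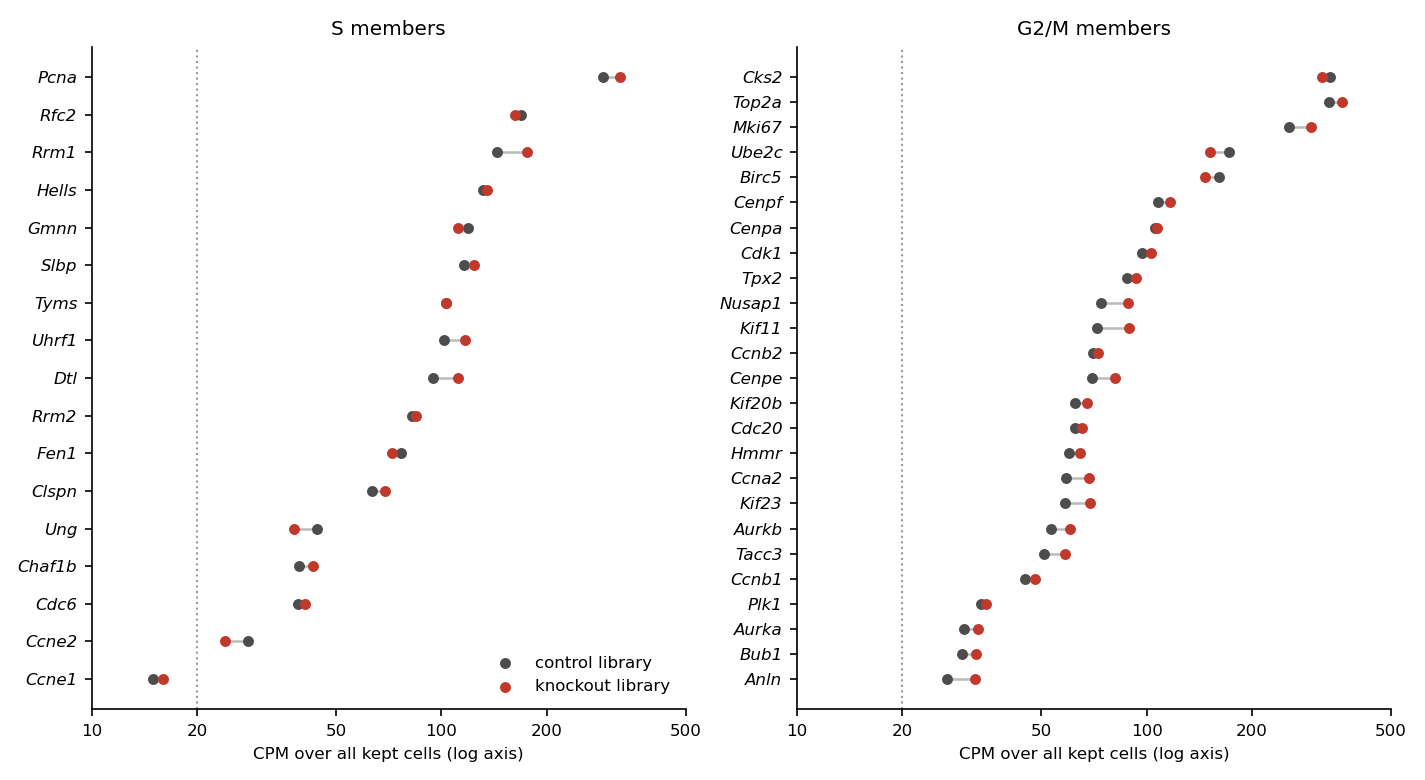
Level of each S gene (left) and G2/M gene (right) over all kept cells, in CPM on a log axis, in the control (grey) and knockout library (red); the dotted line is the 20 CPM floor. The points of a gene lie close together throughout: Rrm1 and Kif11 lie furthest apart towards the knockout library, and Ung, Ccne2 and Ube2c towards the control library.

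Of the 8 genes whose interval lay below 0, 7 had a longest coding transcript under 3500 nt, as did 23 of the 41 measured genes. Of the 10 measured genes under 2000 nt, 8 lay above 0. Cks2, with a longest coding transcript of 692 nt, and Gmnn, with 1127 nt, lay below 0, and Kif11 (4819 nt), Cenpe (7910 nt) and Mki67 (10061 nt) lay above. Pcna, with 1518 nt, had a log2 ratio of 0.16, and Rfc2, with 4995 nt, -0.05. Across the 25 G2/M genes the Spearman correlation of ratio and length was 0.51, and across the 16 measured S genes 0.17. Across 6021 measured genes with a length it was also 0.51. Genes are not independent replicates, and they share the same libraries, so these values are descriptions. Measured genes under 2000 nt had a median log2 ratio of -0.06, with 663 of 1809 above 0, and genes of 3500 nt or more 0.16, with 2190 of 2466 above 0. The 11 G2/M genes of 3500 nt or more had a median of 0.13, with all 11 above 0. In erythroid-like cells the correlation was -0.42 across the G2/M genes and -0.05 across all measured genes. What moves with length in these libraries was not tested.

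**Figure D4:**
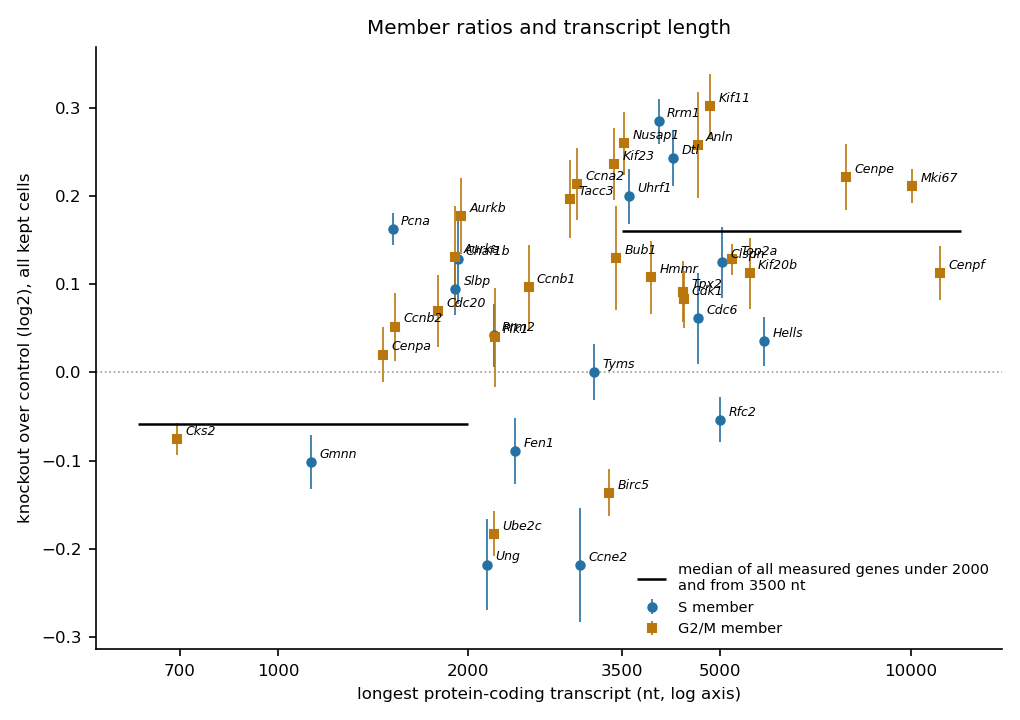
Log2 ratio of knockout over control of each measured gene over all kept cells (y axis, bars are 95% counting intervals) against the length of its longest protein-coding transcript (x axis, nt, log). Circles are S and squares G2/M genes; black lines are the medians of all measured genes under 2000 nt (-0.06) and from 3500 nt (0.16). Of the 10 members under 2000 nt, 8 lie above 0, and of the 18 from 3500 nt, 17.

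Within classes, 4 of 328 measured pairs of gene and class were at least 1.5-fold apart. Counts of intervals above or below 0 are also given for each class, for the S list, the G2/M list or both. How many of all measured genes had such intervals was not counted, so these counts have no background share. In HSC-like cells 0 of 40 measured genes were at least 1.5-fold apart, against 0.797% of 6526 measured genes higher and 0.674% lower. The highest there was Nusap1, at 73.8 CPM in control and 98.6 CPM in knockout cells (0.42, 0.27 to 0.57), followed by Hmmr (0.25) and Aurkb (0.24). The lowest were Cdc6 (28.9 and 23.6 CPM, -0.29), Tyms (-0.25) and Fen1 (-0.22). Of the 15 measured S genes in HSC-like cells, 6 had an interval below 0 and 0 above, with a median of -0.07 beside 0.01 for all measured genes, while the G2/M median was 0.08.

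In lymphoid-primed progenitor-like cells the G2/M genes lay above the control level. Intervals of 18 of the 25 G2/M genes lay above 0 and of 0 below, with a median of 0.26 beside 0.04 for all measured genes. None was 1.5-fold apart, against 1.47% higher and 0.76% lower of all measured genes. Nusap1 stood at 85.5 and 120 CPM (0.49), Kif11 at 79.8 and 106 CPM (0.41) and Cenpa at 99.1 and 132 CPM (0.41). Of 15 measured S genes, 11 intervals spanned 0, with a median of -0.02. Rrm2 lay above 0, at 39.8 and 50.6 CPM (0.35), and 3 lay below. With unsupervised clusters in place of gates, or with a stricter gate, the S list ratio of this class was 0.14 or 0.15. Ung stood at 43.3 and 33.8 CPM (-0.36), Fen1 at 64.2 and 53.0 CPM (-0.28), and Rfc2 at 159 and 139 CPM (-0.19). In the same cells the B-lymphoid markers Ebf1, Il7r and Rag1 had log2 ratios of 1.54, 1.19 and 1.84, and their part in the G2/M shift was not tested.

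Neutrophil progenitor-like cells also had higher G2/M genes in the knockout library. Of the 25, 18 intervals lay above 0 and 3 below, with a median of 0.21, in a class where the median of all measured genes was itself 0.12. With median-of-ratios size factors the G2/M list ratio of this class, 0.13 by total UMIs, was 0.017. Anln stood at 21.1 and 30.6 CPM (0.54), Mki67 at 139 and 188 CPM (0.44) and Kif11 at 47.2 and 63.8 CPM (0.44). The lowest were the S genes Ccne2 (28.8 and 21.4 CPM, -0.43), Ung (-0.26) and Gmnn (-0.25). None was 1.5-fold apart, against 1.58% higher and 0.439% lower. Within this class the Spearman correlation of ratio and length was 0.56 across the G2/M genes and 0.57 across all measured genes.

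In monocyte progenitor-like cells the S genes were higher and the G2/M genes were not. Of 17 S genes, 11 intervals lay above 0 and 2 below, with a median of 0.13 beside 0.08 for all measured genes. Rrm1 stood at 174 and 210 CPM (0.27) and Dtl at 105 and 124 CPM (0.24). Of 25 G2/M genes, 6 lay above and 6 below, with a median of -0.03, Tacc3 being highest (0.22). The lowest were Ube2c (191 and 151 CPM, -0.34), Ung (-0.24) and Birc5 (-0.18). None was 1.5-fold apart, against 1.28% higher and 0.487% lower.

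Dendritic cell-like cells had the widest spread. Of the 17 S genes, 10 intervals lay above 0 and 2 below, with a median of 0.36 beside 0.05 for all measured genes. Of the 25 G2/M genes, 10 lay above and 2 below, with a median of 0.18. The list ratios of this class changed with the choice of cells (last section). Rrm1 stood at 99.3 CPM in control and 158 CPM in knockout cells, a log2 ratio of 0.67 (0.43 to 0.91), and Cdc6 (0.50) and Anln (0.49) were next. Ung stood at 25.7 and 15.5 CPM, from 60 and 39 UMIs (-0.73, -1.35 to -0.12), Chaf1b at 28.7 and 19.1 CPM (-0.59, -1.15 to -0.03), and Ube2c at 319 and 275 CPM (-0.21). The interval of Cdc6 reached below 0. So 1 gene was at least 1.5-fold higher and 2 lower, in a class where 5.82% of measured genes were higher and 2.03% lower.

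In basophil or mast-like cells 7 of 15 measured S genes had an interval above 0 and 0 below, while of the G2/M genes 1 lay above and 3 below. The medians were 0.14 for S and -0.06 for G2/M genes, beside 0.03 for all measured genes. Cdc6 (0.43), Dtl (0.33) and Uhrf1 (0.32) were highest, and Ube2c (228 and 172 CPM, -0.41), Plk1 (-0.37) and Birc5 (-0.29) lowest. None was 1.5-fold apart, against 1.99% higher and 0.827% lower. Erythroid-like cells had lower G2/M genes, with 13 of 25 intervals below 0 and 0 above, led by Nusap1 (139 and 93.6 CPM, -0.58), Ube2c (341 and 247 CPM, -0.46) and Cenpe (-0.35). The G2/M median there was -0.15 beside 0.05 for all measured genes. Hells (0.43), Uhrf1 (0.35) and Ung (0.25) were highest in these cells. None reached 1.5-fold, against 3.42% higher and 3.47% lower.

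In megakaryocyte marker-high cells 1 gene passed 1.5-fold, Ccnb1, at 64.4 CPM in control and 42.7 CPM in knockout cells (-0.59, -0.97 to -0.22), where 4.33% of measured genes were higher and 1.94% lower. Ube2c (-0.40) and Cenpf (-0.34) were next, and Hells (0.41), Chaf1b (0.23) and Rrm1 (0.22) were highest. Of 16 measured S genes, 3 intervals lay above 0 and 0 below, with a median of 0.07 beside 0.03 for all measured genes. Of 25 G2/M genes, 0 lay above and 4 below, with a median of -0.11. Pf4 and Vwf were lower in the same knockout cells, with log2 ratios of -1.68 and -1.52.

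**Figure D5:**
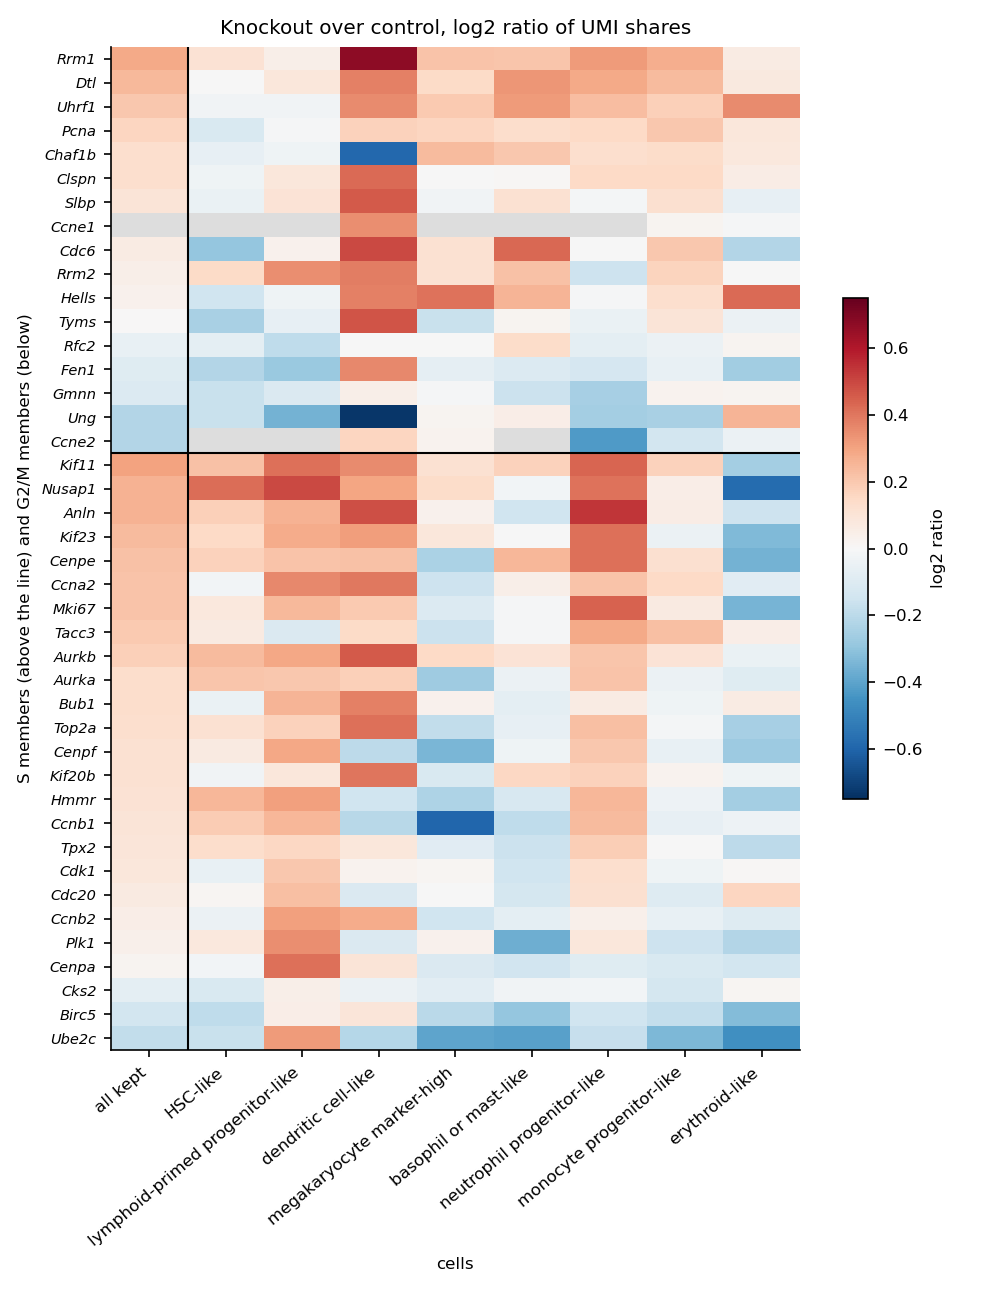
Log2 ratio of knockout over control for each gene (rows, S genes above the line, G2/M genes below, ordered by their ratio over all kept cells) over all kept cells and in each class (columns); grey cells were not measured. Red is higher and blue lower in the knockout library, with colours ending at 0.75 in either direction. Columns for lymphoid-primed and neutrophil progenitor-like cells are red across most G2/M genes, the erythroid-like column is blue across most, and Ube2c is blue in all classes except lymphoid-primed progenitor-like.

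Other genes of the cell cycle, in 5 lists of 63 genes (cyclins and kinases of G1, CDK inhibitors, the RB, E2F and DREAM factors, origin licensing and replication checkpoint, spindle checkpoint and mitotic exit), were read beside the 42. Over all kept cells 50 were measured, and in HSC-like cells 47. In neither were any at least 1.5-fold higher or lower. Such genes occurred in other classes. In dendritic cell-like cells 6 were higher (Cdk2, E2f2, E2f7, Tfdp2, Lin54 and Espl1), where 5.82% of all measured genes were. By list, these were 4 of 17 measured RB, E2F and DREAM, 1 of 8 G1 and 1 of 13 spindle genes. None of 5 measured CDK inhibitors and 11 licensing and replication checkpoint genes was among them. The licensing and replication checkpoint genes still had a median log2 ratio of 0.41 there, beside 0.05 for all measured genes. Their lowest ratio was 0.18, and 4 of their intervals lay above 0 and 0 below. The median of the CDK inhibitors was 0.003. In erythroid-like cells the D-type cyclin Ccnd3 stood at 154 and 81.8 CPM (-0.91) and Ccnd2 at 98.0 and 151 CPM (0.63). The CDK inhibitor Cdkn2d was lower (-0.68) and the kinase Wee1 higher (0.66), where 3.42% of all measured genes were higher and 3.47% lower. Rb1 was higher in basophil or mast-like cells (0.80), where 1.99% of all measured genes were higher. Espl1 was higher in neutrophil progenitor-like (0.76, against 1.58%) and Tfdp2 in megakaryocyte marker-high cells (0.59, against 4.33%). These genes, and Rrm2 in lymphoid-primed progenitor-like cells, were named after their values were seen. Over all kept cells the medians were 0.15 for G1 cyclins and kinases (9 measured), 0.02 for CDK inhibitors (4), 0.15 for RB, E2F and DREAM factors (14), 0.17 for licensing and replication checkpoint (11) and 0.12 for spindle checkpoint and mitotic exit (12), beside 0.08 for all measured genes. Intervals of 13 of the 14 measured RB, E2F and DREAM genes lay above 0, as did 30 of the 41 S and G2/M genes. The share of all measured genes with such an interval was not counted, and their median was itself above 0. In HSC-like cells 2 of 13 RB, E2F and DREAM genes lay above 0 and 2 below, with a median of 0.02.

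UMIs of the cycle genes were also counted in cells with few UMIs. In kept cells under 5000 UMIs the G2/M list took 0.190% of UMIs in the 277 control and 0.256% in the 1127 knockout cells, against 0.251% and 0.266% in deeper cells. The S list took 0.140% and 0.181%, against 0.166% and 0.175%. In barcodes under 500 genes, which were not kept, the G2/M list took 0.0977% and 0.0844% and the S list 0.0590% and 0.0521%. The kept cells under 5000 UMIs entered the summed shares but not the counts of S-high and G2/M-high cells. A cell of low depth and a cell with little RNA could not be told apart.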

How the data were processed

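Lineage- cKit+ marrow cells were profiled with 10x Chromium 3′ v3.1 chemistry, 1 library per genotype. The authors deposited UMI counts per gene and cell, made with Cell Ranger 6.1.2 on mm10 per the submitters' processing notes. The sources used here do not state the annotation or how cells were called. The values are whole molecules of 3′ ends, unnormalised.

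Barcodes needed 500 genes or more and a mitochondrial share below 10%. Doublets predicted by Scrublet (scanpy 1.11.5, expected rate 10%) were removed, 146 control and 52 knockout cells. Classes came from 12 gates of 82 markers: a mean standardised log-normalised marker level of at least 0.5, a lead of 0.25 over the next class and at least 3 markers detected. The gate thresholds and the handling of doublets were set after the data were seen. Classes with at least 100 cells in each library were compared. Shares of cells used counts thinned to 5000 UMIs. Levels are UMIs per 1000000 UMIs of a class. A gene was measured with at least 20 CPM in a library and 50 UMIs in all. Genes at least 1.5-fold apart were counted, and in each class the 3 highest and 3 lowest members were named.

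With 1 library per genotype no test was run. Intervals at 95% are exact (Clopper-Pearson for shares, Poisson for levels, conditional binomial for ratios) or Newcombe's for differences in share. They cover counting error only. The members and lists were chosen with earlier results of these data known. Alternatives in filter, gating, clustering, thinning, thresholds, scaling and floor were run.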

Additional observations from a re-analysis of the deposited data

Results flagged for a closer look

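The log2 ratio of knockout over control differed in direction between classes for both lists. The G2/M list's share of UMIs had a log2 ratio of 0.23 in lymphoid-primed progenitor-like cells and -0.20 in erythroid-like cells. The S list's share had a log2 ratio of 0.29 in dendritic cell-like cells and -0.082 in HSC-like cells. With 1 library per genotype the difference between classes was not tested. Marker genes moved in the same classes: Ebf1 by a log2 ratio of 1.54 in lymphoid-primed progenitor-like cells and Hbb-bt by 1.30 in erythroid-like cells. Their part in these ratios was not tested.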

How the results depend on the processing

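The count of members at least 1.5-fold apart over all kept cells was 0 in every alternative run. Values are log2 ratios of a list's share of UMIs unless given in percentage points of cells, and the cause of a change was not tested. With a minimum of 1000 genes and mitochondrial UMIs below 5%, the S ratio was 0.016 in HSC-like cells, where its direction reversed, 0.057 in neutrophil, 0.18 in monocyte, 0.19 in basophil or mast-like and 0.16 in erythroid-like cells. The G2/M ratio was then 0.20 in HSC-like, 0.29 in lymphoid-primed, -0.11 in monocyte, -0.27 in erythroid-like and -0.085 in megakaryocyte marker-high cells, and the S-high difference 11.4 points in monocyte, 4.76 in dendritic and 10.6 in basophil or mast-like cells. With clusters made without cell cycle genes, which gave no megakaryocyte class, the S ratio was -0.023 in HSC-like, 0.14 in lymphoid-primed, 0.056 in neutrophil, 0.070 in dendritic and -0.046 in erythroid-like cells (reversed). The G2/M ratio was 0.13 in HSC-like, 0.54 in lymphoid-primed, 0.074 in neutrophil, -0.0049 in monocyte, -1.1e-05 in dendritic (reversed), 0.079 in basophil or mast-like (reversed) and -0.32 in erythroid-like cells, and the S-high difference 4.23 points in lymphoid-primed cells. A stricter marker gate, chosen after seeing the data, gave S ratios of -0.26 in HSC-like, 0.15 in lymphoid-primed, -0.016 in neutrophil (reversed) and 0.19 in megakaryocyte marker-high cells. Its G2/M ratios were 0.15 in HSC-like, 0.14 in lymphoid-primed, 0.075 in neutrophil, -0.070 in monocyte, 0.076 in basophil or mast-like (reversed), -0.24 in erythroid-like and -0.032 in megakaryocyte marker-high cells. Median-of-ratios size factors gave S ratios of -0.068 in lymphoid-primed, -0.093 in neutrophil (reversed), 0.047 in monocyte and -0.00099 in erythroid-like cells (reversed). The G2/M ratios were 0.19 in lymphoid-primed, 0.017 in neutrophil, -0.11 in monocyte, 0.11 in dendritic and -0.25 in erythroid-like cells, and the G2/M members' median 0.029. The same scaling reversed Rrm2 (-0.042), Cdc6 (-0.023), Hells (-0.049), Cdk1 (-0.0012), Ccnb2 (-0.032) and Cdc20 (-0.014). With doublets retained, dendritic cell-like values were 0.16 (S), 0.21 (G2/M) and 3.74 points (S-high). Thinning to 10000 UMIs gave differences of -1.43 points for G2/M-high neutrophil cells, -1.93 points for S-high dendritic cells (reversed) and 4.79 points for G2/M-high dendritic cells. A higher threshold gave 6.20 points for G2/M-high lymphoid-primed, 1.76 for G2/M-high monocyte, 3.51 for S-high dendritic and -8.01 for S-high erythroid-like cells, and a lower threshold -7.03 points for G2/M-high HSC-like cells. The mean of per-cell shares gave G2/M ratios of 0.13 in HSC-like, 0.20 in dendritic and 0.021 in basophil or mast-like cells (reversed). Without the most abundant member (Pcna or Top2a) the S ratio was 0.00037 in neutrophil and 0.11 in monocyte cells, and the G2/M ratio 0.12 in dendritic cells. A floor of 100 CPM gave a G2/M members' median of 0.052. Of the 42 members, the 36 others also moved with size factors, all by the same shift of 0.08, and 15 moved with the stricter filter. No library could be left out, since each genotype has 1. No paired analysis was possible because each genotype has 1 library. Cells under 5000 UMIs, 277 control and 1127 knockout, limit the shares of cells.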
